A study of Mus musculus with 34 samples.

Results

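RNA levels of 8 genes that shape chromosome loops were followed in mouse cells at 3 stages of differentiation and in 3 genotypes at the 7qF3 locus, the mouse counterpart of human 16p11.2. The genes are Ctcf, the cohesin subunits Rad21, Smc1a, Smc3, Stag1 and Stag2, the cohesin loader Nipbl, and Smchd1. They were chosen by name, not by their values, but with earlier results of these data known. They make up 8 of the 29876 gene entries of the count table. All 8 were among the 19996 entries that passed the low-count filter over the 28 libraries. The mutants were embryonic stem cells (ESCs) with a heterozygous deletion (genotype df/+, here "deletion", del in the plots) and ESCs with a deletion on one homologue and a duplication on the other (df/dp, "duplication-deletion", dupdel). The controls carried neither (+/+, con). Each genotype is labelled 129Sv, with C57BL/6N as the background strain, and the lines had been made earlier by Horev et al. Cells were sampled as ESCs grown on gelatine with LIF, as neuronal progenitor cells (NPCs) of the ventral midbrain lineage on day 5 of differentiation from an epiblast stem cell intermediate, and as immature dopaminergic neurons (NEU in the plots) on day 16. There were 3 deletion, 3 duplication-deletion and 3 control ESC libraries, 3, 3 and 5 NPC libraries in the same order, and 2, 2 and 4 neuron libraries. How many independent lines stood behind a genotype, and whether replicates were separate cultures, is not given in the labels, so p-values measure the spread between these libraries. In 1 label field the duplication-deletion NPCs are described by the deletion alone, while their title and genotype name both changes.

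CTCF is a zinc finger protein that binds DNA at directional sites and halts the cohesin complex there. Cohesin is a ring in which SMC1A and SMC3 form the long arms, RAD21 closes the ring, and either STAG1 or STAG2 docks onto it. NIPBL activates the ring to extrude DNA loops, and the same complex holds sister chromatids together from replication to mitosis, so its genes are used both by dividing cells and by neurons that no longer divide. SMCHD1 is a non-canonical SMC protein that keeps the inactive X chromosome, imprinted genes and clustered protocadherin genes silent. CTCF and cohesin in turn join protocadherin promoters to distant enhancers in neurons.

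Libraries held 5578151 to 78814037 expected counts, and the shallowest was replicate 3 of the deletion ESCs. The median of 19 measured genes of the 7qF3 interval, as a share of the control mean, averaged 42.2% ± 9.96 in deletion ESCs, 56.6% ± 15.2 in deletion NPCs and 51.3% ± 10.8 in deletion neurons (SD, n = 3, 3 and 2). In duplication-deletion cells it averaged 94.7% ± 27.1, 105% ± 25.1 and 85.3% ± 2.93 in ESCs, NPCs and neurons (n = 3, 3 and 2). Pou5f1, which marks pluripotent cells, was at 175 to 364 CPM (counts relative to the library total, scaled by the TMM method) in the 9 ESC libraries and under 1 CPM afterwards. Th, the dopamine synthesis enzyme, averaged 21.9 ± 14.9 CPM in deletion neurons, 111 ± 96.3 CPM in duplication-deletion neurons and 72.8 ± 25.6 CPM in control neurons (n = 2, 2 and 4). Markers of other cells were present in the neuron cultures, where 7 neural crest and mesenchyme markers summed to 665 to 1879 CPM in controls, against 201 to 586 CPM in control NPCs.

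Start regions are shown for the 4 members that were called lower in neurons than in NPCs in both deletion and control cells, although the call of Stag1 in deletion cells was lost in 13 of 18 alternatives. Each is 250 bases before and 50 after the gene's start, from RefSeq on GRCm38.p6, on the gene's own strand. They lie at chr8:105636288-105636587 on the plus strand (Ctcf), chrX:152016178-152016477 on the plus strand (Smc1a), chr9:100643198-100643497 on the plus strand (Stag1) and chr17:71475294-71475593 on the minus strand (Smchd1). Capitals mark letters that match a searched motif on either strand.
Ctcf: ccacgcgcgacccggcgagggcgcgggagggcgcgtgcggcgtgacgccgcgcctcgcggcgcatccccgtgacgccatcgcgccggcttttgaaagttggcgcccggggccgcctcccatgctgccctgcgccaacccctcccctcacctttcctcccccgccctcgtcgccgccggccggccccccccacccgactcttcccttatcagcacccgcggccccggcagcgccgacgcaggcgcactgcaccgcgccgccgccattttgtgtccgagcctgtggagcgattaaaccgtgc
Smc1a: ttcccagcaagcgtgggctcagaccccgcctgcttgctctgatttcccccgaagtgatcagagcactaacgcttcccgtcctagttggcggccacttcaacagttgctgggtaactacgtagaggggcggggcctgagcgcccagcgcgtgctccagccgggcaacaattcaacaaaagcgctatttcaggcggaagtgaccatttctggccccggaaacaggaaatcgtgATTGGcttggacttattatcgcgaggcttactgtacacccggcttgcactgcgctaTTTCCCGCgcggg
Stag1: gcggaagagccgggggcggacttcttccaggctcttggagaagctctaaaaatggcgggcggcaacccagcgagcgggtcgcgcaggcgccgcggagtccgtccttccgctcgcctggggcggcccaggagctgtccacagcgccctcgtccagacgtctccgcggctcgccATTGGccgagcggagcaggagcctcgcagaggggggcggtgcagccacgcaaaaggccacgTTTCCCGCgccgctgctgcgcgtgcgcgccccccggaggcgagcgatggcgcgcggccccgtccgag
Smchd1: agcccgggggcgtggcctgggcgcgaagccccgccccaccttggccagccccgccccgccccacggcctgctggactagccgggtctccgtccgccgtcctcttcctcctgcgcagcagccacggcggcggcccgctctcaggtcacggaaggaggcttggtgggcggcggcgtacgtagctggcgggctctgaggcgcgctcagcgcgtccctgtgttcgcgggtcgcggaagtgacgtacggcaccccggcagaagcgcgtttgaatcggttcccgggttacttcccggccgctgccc
The motifs marked were those of E2F (TTTCCCGC, TTTGGCGC or TTTCGCGC), YY1 (AAGATGGCG), ETS (CCGGAAGT) and NFY (CCAAT), the names standing for factors known to bind such letters. No result is given here for motifs of other factors, such as NRF1 and CTCF. The E2F letters TTTCCCGC began at base 38 of the Smc1a gene and 17 bases before the start of Stag1, and 1.84% of the 32807 promoter windows of that length held one of the E2F words. CCAAT lay on the opposite strand in both windows, beginning 19 bases before the Smc1a start and 78 before that of Stag1, and was present in 37.4% of all windows. The Ctcf and Smchd1 windows, and that of Smc3, which was searched too, held none of these letters. Rad21, Stag2 and Nipbl had no window to search. The other words were in 1.4% (YY1) and 3.89% (ETS) of all windows, and none of the searched words overlapped another in these genes. The windows were rich in CpG, with 47 in Ctcf, 43 in Stag1, 40 in Smchd1 and 23 in Smc1a, against a median of 7 over all windows. Each E2F word holds CpG, so the share over all windows is not a like background for these.

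**Figure D1:**
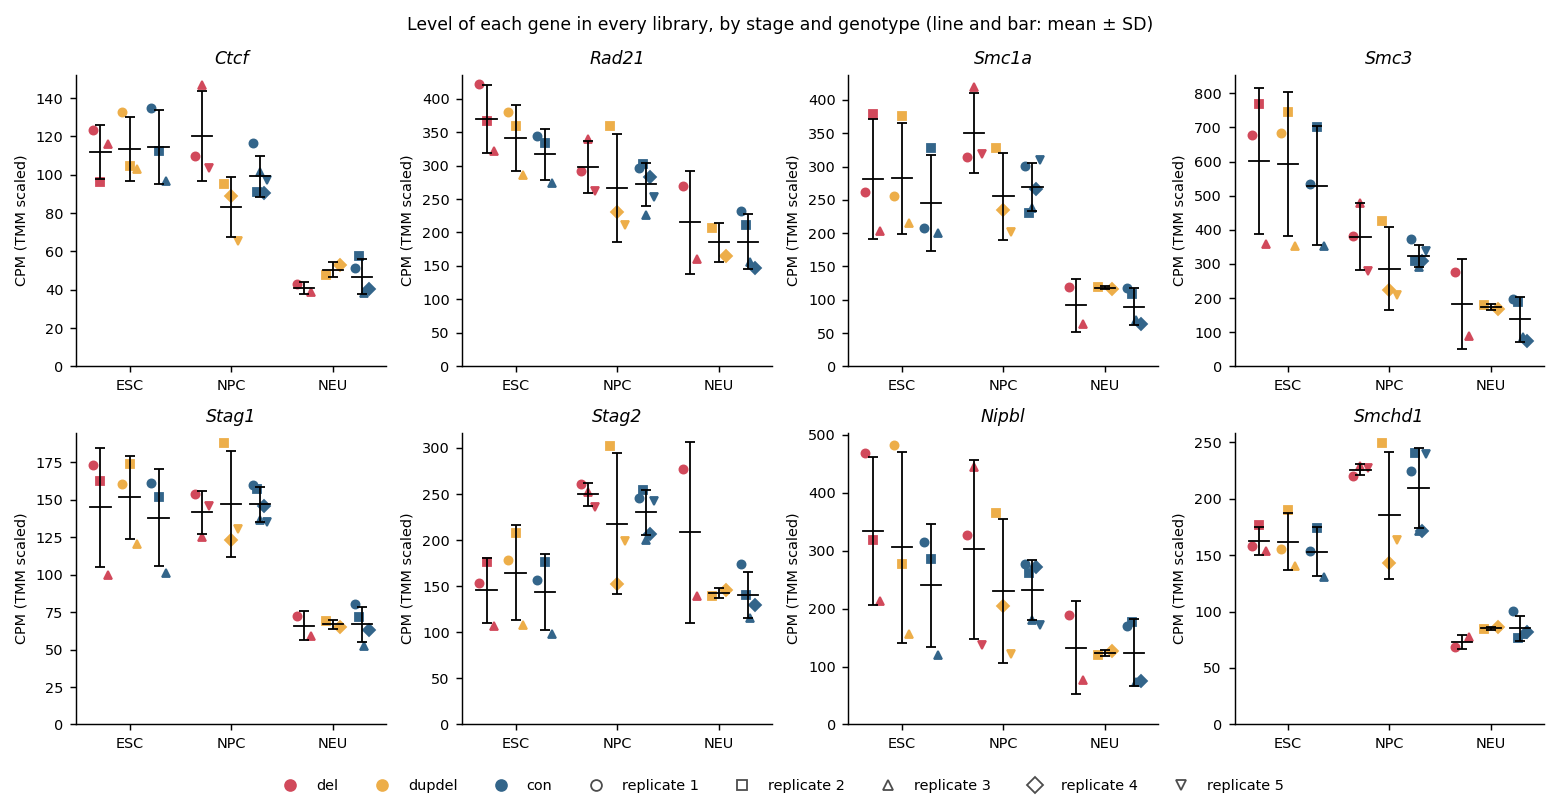
Level of each of the 8 genes (y axis, CPM after TMM scaling) in every library, by stage on the x axis and by genotype in colour, with the replicate number as the marker shape and a line and bar for the group mean ± SD. All 8 genes have their lowest control mean in neurons, and Stag2 has its highest in NPCs.

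The main change was between NPCs and neurons. In control cells 7 of the 8 genes fell, by 0.51 to 1.55 on the log2 scale, and Nipbl was at -0.87 ± 0.35 (SE) with an adjusted p of 0.0543 by edgeR's quasi-likelihood test with Benjamini-Hochberg adjustment. Of all 18365 genes tested in that comparison 43.7% were called, 20.5% as lower and 23.2% as higher, and the median log2 fold change of the members was -1.08 against 0.10 over all genes. The median over all genes was 0.22 with DESeq2 size factors and 0.17 with upper quartile scaling, so every member fold change lies further from the middle of the distribution than from 0. Since RNA was taken from whole cultures, fewer cells of a type and less RNA per cell cannot be told apart. The 20 proliferation genes fell in the same comparison, 20 of 20, with a summed level of 208 to 362 CPM in control neurons against 4782 to 5741 CPM in control NPCs. The part of cell division, or of other cells in the cultures, in the members' fall was not tested.

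Control neurons of replicates 3 and 4 stood below replicates 1 and 2 in every member but Smchd1, where replicate 2 was lowest. Their TMM factors were also apart, 1.36 and 1.49 against 0.831 and 1.06, and the entry with the most counts took 21.4% and 19.6% of their counts against 38.8% and 28.4%. The part of these differences in the members' values was not tested. With those 2 replicates left out of every genotype, a setting chosen after the data were seen, 4 of 8 members were called: Smc1a (-1.18), Smchd1 (-1.17), Stag1 (-0.88) and Ctcf (-0.80). Smc3 was then at -0.67, Stag2 at -0.48, Nipbl at -0.35 and Rad21 at -0.23, with adjusted p of 0.0746, 0.177, 0.487 and 0.453 by edgeR.

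Ctcf (mm9 chr8:108160438-108206822) had 135, 112 and 96.7 CPM in control ESCs, 117, 90.8, 102, 90.5 and 97.2 CPM in control NPCs, and 51.4, 57.6, 38.1 and 40.2 CPM in control neurons. The ESC and NPC libraries overlapped, and every neuron library was below every earlier one. Control neurons lay below control NPCs without overlap in 6 members, as in 18.3% of all genes. Between neurons and NPCs the log2 fold change was -1.05 ± 0.18 (SE; adjusted p = 0.00043, edgeR), and between NPCs and ESCs it was -0.22 ± 0.20 with an adjusted p of 0.392. Across all 28 libraries the genes whose log2 CPM followed Ctcf most closely, of 11177 compared, were the replication helicase subunit Mcm4 (Pearson r = 0.963), the cell cycle phosphatase Cdc25a (0.962) and Uhrf1 (0.961), which recruits the maintenance DNA methyltransferase. These correlations are descriptions: the libraries share 3 stages, scaling and depth.

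Smc1a (mm9 chrX:148450971-148496516) showed the largest fall of the members between control NPCs and neurons. It had 207, 328 and 201 CPM in control ESCs, 301, 231, 237, 266 and 309.5 CPM in control NPCs, and 118, 108, 69.0 and 63.4 CPM in control neurons. No neuron library reached the lowest earlier library, and the log2 fold change between neurons and NPCs was -1.55 ± 0.24 (SE; adjusted p = 0.00018, edgeR), a level of 0.333 times that of NPCs. Its partner arm Smc3 (mm9 chr19:53674886-53720321) had 534, 702 and 353 CPM in control ESCs, 374, 309, 291, 308 and 337 CPM in control NPCs, and 198, 189.6, 87.2 and 75.6 CPM in control neurons. The mean of Smc3 was 529.7 CPM in control ESCs, 324 CPM in NPCs and 138 CPM in neurons, although replicate 3 of the control ESCs fell inside the NPC range. The first step of Smc3 was -0.73 ± 0.32 with an adjusted p of 0.0846, and the second -1.20 ± 0.31 with an adjusted p of 0.00601. The closest genes to Smc1a over the 28 libraries were Pnn (r = 0.968), Ssrp1 (0.962) and Casp8ap2 (0.961), and those to Smc3 were Eif3a (0.986), Bdp1 (0.983) and Nop14 (0.981).

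Rad21 (mm9 chr15:51794150-51823306), the clasp of the ring that separase cuts at anaphase, had the smallest fall of the 7 between control NPCs and neurons. It had 344, 333 and 274 CPM in control ESCs, 296, 303, 227, 282 and 253 CPM in control NPCs, and 231, 212, 156 and 146 CPM in control neurons. The highest neuron library lay above the lowest NPC library. The log2 fold change of neurons over NPCs was -0.51 ± 0.19 (SE; adjusted p = 0.0423, edgeR), and the adjusted p ran from 0.0240 to 0.453 over 22 alternatives, of which 14 lost the call. Against control ESCs the neurons fell by 0.75 on the log2 scale (SE 0.21, adjusted p = 0.00824, edgeR). The closest genes were Bdp1 (r = 0.965), Eif3a (0.957) and Kpna3 (0.949).

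STAG1 and STAG2 are alternative subunits of the ring. Stag1 (mm9 chr9:100544042-100858963) had 161, 152 and 101 CPM in control ESCs, 160.0, 157, 137, 146 and 135 CPM in control NPCs, and 80.2, 71.6, 52.6 and 63.0 CPM in control neurons. Its ESC and NPC levels overlapped, at 0.07 ± 0.20 on the log2 scale (adjusted p = 0.801, edgeR), and the neurons fell by 1.11 (SE 0.19, adjusted p = 0.000368). Stag2 (mm9 chrX:39502589-39630352) had 157, 177 and 97.8 CPM in control ESCs, 246, 255, 199.8, 207 and 243 CPM in control NPCs, and 174, 140.1, 116 and 129.9 CPM in control neurons. The NPC libraries stood above all others of the control line, and the neuron libraries lay within the ESC range.

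Stag2 was the one member called between control NPCs and ESCs, where 41.5% of all genes were called, 21% as higher and 20.5% as lower. The rise was 0.66 ± 0.22 on the log2 scale (SE; adjusted p = 0.0299, edgeR), and 8 of 22 alternatives lost the call, with adjusted p of 0.0181 to 0.143 over all of them. Left out singly, replicate 1 of the control ESCs or replicate 1, 2 or 5 of the control NPCs brought the count of members called to 0. Stag2 then fell by 0.69 between NPCs and neurons (SE 0.21, adjusted p = 0.0147), and its neuron level differed from that of ESCs by -0.02, with a 95% interval of -0.52 to 0.47. The genes that followed Stag1 most closely over all libraries were Nucks1 (r = 0.980), Zfp207 (0.973) and Rpp30 (0.972). Those nearest to Stag2 were Ptpn12 (0.922), C130022K22Rik (0.920) and the BMP receptor Bmpr1a (0.905).

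Nipbl (mm9 chr15:8241225-8415285), which loads and activates cohesin, varied most between libraries of the same group. It had 314, 286 and 119 CPM in control ESCs, 276, 262, 180.4, 272 and 171 CPM in control NPCs, and 170.2, 177, 73.1 and 75.1 CPM in control neurons. The coefficient of variation within a group had a median of 46.4% for Nipbl over the 9 groups, against 12.8% for Smchd1 and 14.4% for Rad21. Control neurons were below control ESCs at -0.94 ± 0.38 (SE; adjusted p = 0.0496, edgeR), a call that 13 of 22 alternatives lost. Its nearest genes were Fmr1 (r = 0.966), Dld (0.955) and A630089N07Rik (0.949).

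Smchd1 (mm9 chr17:71693834-71824683) had 154, 174 and 131 CPM in control ESCs, 224, 240.5, 171, 172 and 239.7 CPM in control NPCs, and 101, 76.5, 80.5 and 82.1 CPM in control neurons. The mean was highest in NPCs, although 2 of the 5 NPC libraries lay below the highest ESC library, and the difference of 0.44 ± 0.20 did not pass (adjusted p = 0.0938, edgeR). The neurons stood apart below both earlier stages. They fell by 1.27 against NPCs on the log2 scale (SE 0.19, adjusted p = 0.000101) and by 0.83 against ESCs (SE 0.20, adjusted p = 0.00311). The closest genes were 2810417H13Rik (r = 0.961), the ribonucleotide reductase subunit Rrm1 (0.954) and Rbm3 (0.953). The clustered protocadherin genes, on which SMCHD1, CTCF and cohesin are known to act, were summed by cluster in each control library. The 22 Pcdhb entries summed to 0.521 to 1.50 CPM in ESCs, 27.8 to 86.3 CPM in NPCs and 160.3 to 315 CPM in neurons. The 15 Pcdha entries summed to 0.434 to 1.49, 7.53 to 12.8 and 55.5 to 125 CPM, and the 22 Pcdhg entries to 57.8 to 76.8, 166 to 329.5 and 452 to 541 CPM, in the same stages. Each sum was higher at each later stage without overlap, whereas Smchd1 was lowest in neurons, and the sums were not tested.

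Over ESCs and neurons taken directly, 7 of 8 members fell in control cells, all but Stag2, where 57.4% of all genes were called and 27.6% were lower. The steepest of these falls was that of Smc3, by 1.93 on the log2 scale (SE 0.34, adjusted p = 0.00027, edgeR), to 0.26 times its ESC level.

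**Figure D2:**
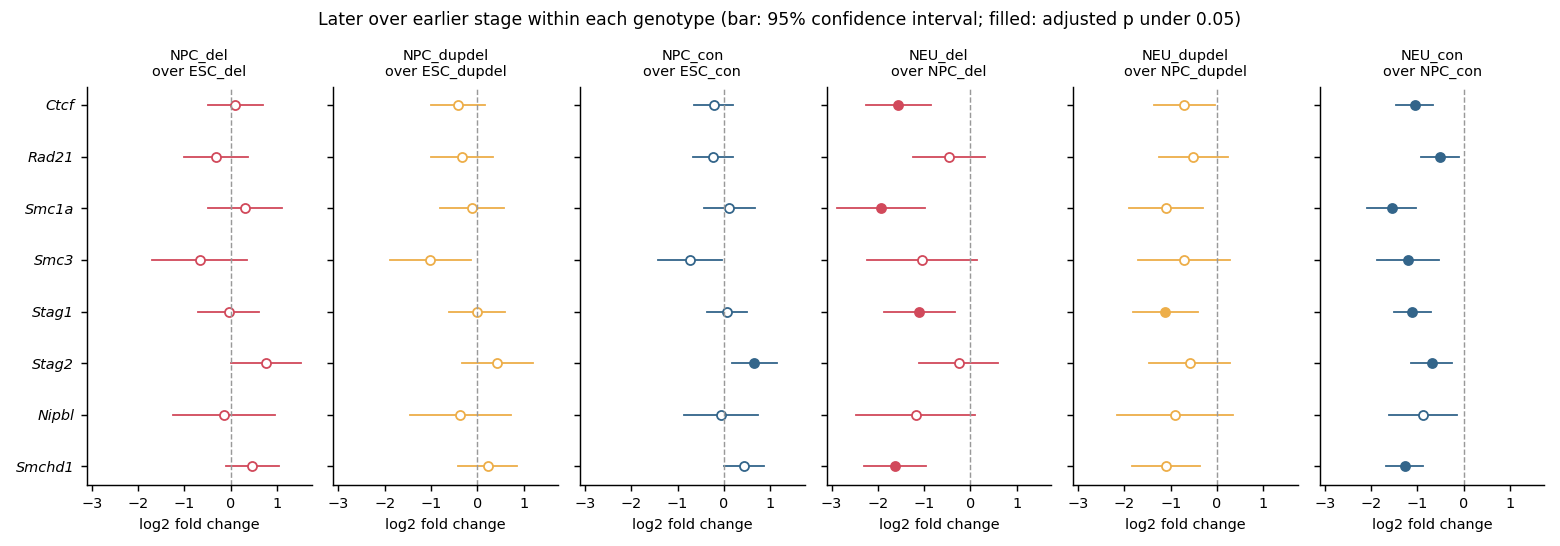
Log2 fold change of each gene (x axis) for the later over the earlier stage in deletion, duplication-deletion and control cells, with bars for the 95% confidence interval and filled points for adjusted p under 0.05. All 8 points lie below 0 for neurons over NPCs in each genotype, and 4, 1 and 7 of them are filled.

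The same step in mutant cells gave negative fold changes for all 8 members in both genotypes. In deletion cells 4 of 8 fell between NPCs and neurons, where 19.9% of all genes were called and 9.39% were lower: Smc1a (-1.93), Smchd1 (-1.63), Ctcf (-1.56) and Stag1 (-1.10) on the log2 scale, with adjusted p of 0.0122, 0.00532, 0.00803 and 0.0462 by edgeR. The call of Stag1 was lost in 13 of 18 alternatives, with adjusted p of 0.00386 to 0.216 over all of them, and those of Smc1a and Ctcf in 2 each. Ctcf had 43.0 and 38.5 CPM in the 2 deletion neuron libraries against 110.0, 147 and 103 CPM in the 3 deletion NPC libraries. Without replicate 3 of the deletion neurons 1 of 8 was called, Smchd1 at -1.64. In duplication-deletion cells 1 of 8 fell, Stag1 by 1.12 (SE 0.31, adjusted p = 0.0427), where 15% of all genes were called and 6.95% were lower. Stag1 had 69.1 and 64.8 CPM in duplication-deletion neurons against 188, 123 and 130.5 CPM in duplication-deletion NPCs. The call of Stag1 was lost in 9 of 18 alternatives (adjusted p of 0.00418 to 0.246), and the count of members called ranged from 0 to 4. Smchd1 (-1.10, adjusted p = 0.0507) and Smc1a (-1.10, adjusted p = 0.0672) lay just above the threshold.

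Between NPCs and ESCs no member was called by edgeR in deletion cells (29.9% of all genes) or in duplication-deletion cells (31.8%), with 1 unadjusted p under 0.05 in each. DESeq2 gave 0 and 1 calls, and limma-voom 0 and 1. Stag2 in deletion cells had 261, 252 and 236 CPM in NPCs against 154, 176 and 107 CPM in ESCs, at 0.77 ± 0.34 and an adjusted p of 0.115. Smc3 in duplication-deletion cells had 426, 225 and 209 CPM in NPCs against 683, 744 and 352 CPM in ESCs, at -1.02 ± 0.39 and an adjusted p of 0.0747.

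Ratios of counts between members of 1 library do not depend on scaling between libraries, and show whether members kept their proportions. A ratio also depends on the lengths of both transcripts, so its change between stages is what can be read. The log2 ratio of Stag2 to Stag1 counts was -0.04, 0.22 and -0.05 in control ESCs, 0.62, 0.69, 0.55, 0.51 and 0.85 in control NPCs, and 1.12, 0.97, 1.14 and 1.04 in control neurons. No 2 stages overlapped. The difference was 0.60 for NPCs over ESCs and 0.42 for neurons over NPCs, with exact two-sided permutation p of 0.0357 and 0.0159, the smallest these group sizes allow, and 0.0714 and 0.0529 after Benjamini-Hochberg adjustment over 10 such tests. Over all 3 genotypes Stag2 had 0.889 to 1.20 times the counts of Stag1 in the 9 ESC libraries, 1.24 to 2.01 times in the 11 NPC libraries and 1.96 to 3.82 times in the 8 neuron libraries, so that NPC libraries lay above all ESC libraries and met the neuron range only at its lower end.

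For the arms of the ring the log2 ratio of Smc1a to Smc3 averaged -1.09 ± 0.28 in control ESCs, -0.27 ± 0.11 in control NPCs and -0.54 ± 0.28 in control neurons (SD, n = 3, 5 and 4). The libraries of NPCs and ESCs did not overlap (difference 0.82, exact permutation p = 0.0357, adjusted 0.0714), and those of neurons and NPCs did (-0.27, exact p = 0.143, adjusted 0.179). Over all genotypes the ratio was -1.42 to -0.71 in ESCs and -0.42 to 0.18 in NPCs. The log2 ratio of Rad21 to Smc3 averaged 0.54 ± 0.41 in control neurons against -0.25 ± 0.17 in control NPCs (n = 4 and 5), without overlap (difference 0.80, exact permutation p = 0.0159, adjusted 0.0529). With the neuron replicates 3 and 4 left out that difference was 0.44.

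The log2 ratio of Ctcf to Rad21 averaged -1.99 ± 0.14 in control neurons against -1.45 ± 0.24 in control NPCs, without overlap (difference -0.54, exact permutation p = 0.0159, adjusted 0.0529). It averaged -1.47 ± 0.11 in control ESCs, which NPCs overlapped (difference 0.02, exact p = 0.929, adjusted 0.929). Nipbl relative to Rad21 overlapped between all control stages, with differences of 0.27 for NPCs over ESCs and -0.44 for neurons over NPCs (exact p = 0.464 and 0.0952, adjusted 0.516 and 0.136). Without replicate 3 of the control ESCs the first difference was -0.08, without the shallow libraries it was 0.00, and without neuron replicates 3 and 4 the second was -0.10. None of the 10 tests passed after adjustment.

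**Figure D3:**
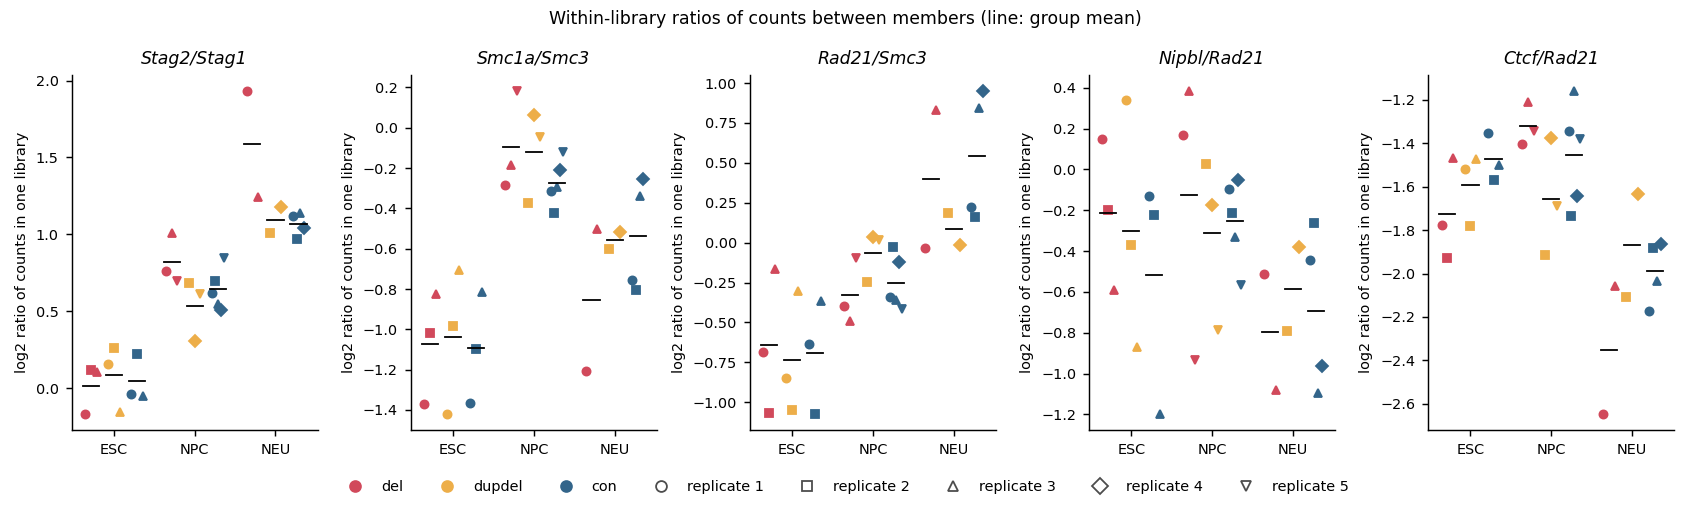
Log2 ratio of counts of 2 members within each library (y axis) by stage (x axis) and genotype (colour), with marker shapes for replicate numbers and a line for the group mean. The ratio of Stag2 to Stag1 steps up at both transitions in controls, and that of Smc1a to Smc3 stands higher in all 11 NPC libraries than in all 9 ESC libraries.

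Partners of the complex were compared with the members by lists of named genes. Of 12 genes for cohesin loading, release, acetylation and cleavage, 8 fell and none rose between control NPCs and neurons, where 20.5% of all genes were lower and 23.2% higher, with a median log2 fold change of -2.72. Those with the smallest p were the centromere protector Sgol1 (-4.28 ± 0.25, 1.98 ± 0.342 CPM in neurons against 39.3 ± 5.96 CPM in NPCs), the mitotic kinase Plk1 (-4.00 ± 0.28), the S phase acetyltransferase Esco2 (-3.73 ± 0.39) and the separase inhibitor Pttg1 (-3.52 ± 0.24), with adjusted p of 5.79e-06 or less by edgeR. Of 14 condensin and SMC5/6 genes 12 fell, with a median of -1.35. Those with the smallest p were the condensin subunits Ncaph (-3.75 ± 0.26), Ncapg (-3.38 ± 0.27), Ncapd2 (-3.31 ± 0.23) and Ncapg2 (-2.87 ± 0.20). The median of the 8 members was -1.08, and the difference from either list was not tested.

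Of 12 genes for proteins that act with CTCF or at its sites, 7 fell between control NPCs and neurons, among them Parp1 (-1.91 ± 0.20), Zfp143 (-1.43 ± 0.31), Vezf1 (-1.29 ± 0.30) and Rbbp5 (-1.08 ± 0.17). Of 13 genes for the SMCHD1 partner LRIF1 and for DNA and H3K9 methylation and its control, 6 fell and 2 rose. Uhrf1 (-4.93 ± 0.34) and the maintenance methyltransferase Dnmt1 (-1.58 ± 0.23) were among the first, and the de novo methyltransferase Dnmt3a rose by 1.18 (SE 0.20) to 121.5 ± 15.8 CPM in neurons, against 54.6 ± 8.10 CPM in NPCs.

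Between control NPCs and ESCs the germ line paralogs of the complex fell, 4 of the 4 that could be tested. Smc1b averaged 0.209 ± 0.132 CPM in NPCs against 78.4 ± 53.0 CPM in ESCs, and Stag3 15.6 ± 5.40 CPM against 87.8 ± 18.7 CPM, with log2 fold changes of -8.60 ± 0.87 and -2.50 ± 0.30. Rec8 averaged 0.0139 ± 0.0218 CPM in NPCs against 5.17 ± 1.48 CPM in ESCs, and Ctcfl had no counts in NPCs against 3.20 ± 1.13 CPM in ESCs. Of the cohesin partners 7 fell and 1 rose. Esco2 fell by 2.33 (SE 0.36) and the release factor Wapal by 1.02 (SE 0.22), while Mau2, the partner of NIPBL, rose by 1.04 (SE 0.21) to 54.2 ± 8.88 CPM in NPCs against 26.1 ± 4.23 CPM in ESCs. Of the 12 genes of the CTCF group 3 rose and 2 fell, with Vezf1 up by 2.33 (SE 0.35), counts near the 21% higher and 20.5% lower of all genes. Of the 13 genes of the silencing group 1 rose and 6 fell. The methyltransferase cofactor Dnmt3l averaged 0.0464 ± 0.0635 CPM in NPCs against 87.3 ± 18.8 CPM in ESCs, and the demethylase Tet1 fell by 4.33 (SE 0.25).

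**Figure D4:**
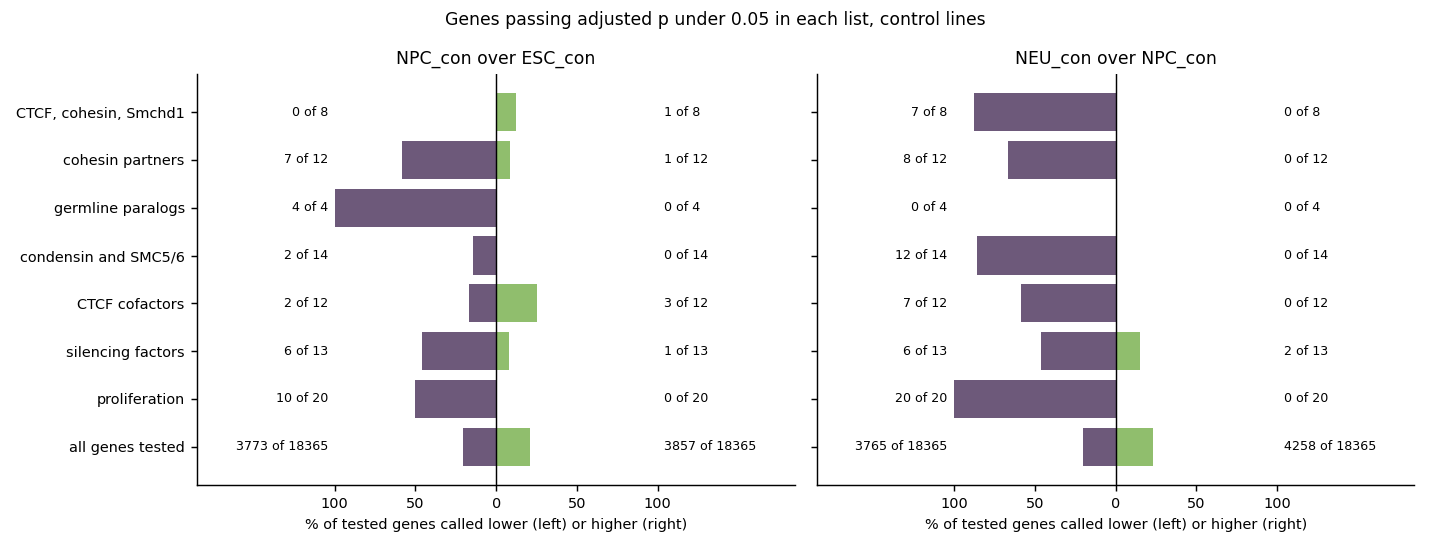
Share of tested genes of each list (rows) called lower (bars to the left, percent) or higher (bars to the right) at adjusted p under 0.05, for control NPCs over ESCs and control neurons over NPCs, with the counts printed beside. For neurons over NPCs the bars of the members reach 7 of 8 and of the proliferation list 20 of 20, against 3765 of 18365 genes in all.

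Genotype was compared within each stage. No member was called in any of the 9 comparisons, by edgeR, DESeq2 or limma-voom or under any other alternative run, and 1 of the 72 unadjusted edgeR p-values was under 0.05. The share of all genes called was 0% in the 3 ESC comparisons, 0.00596% for deletion NPCs and 0.0119% for duplication-deletion NPCs over controls, 0% for deletion neurons and 0.039% for duplication-deletion neurons over controls. Between deletion and duplication-deletion cells it was 0.0238% in NPCs and 0.0335% in neurons. The replicate number was also used as a block in ESCs, where the numbers pair libraries, and in neurons, where that is uncertain. The fit with the block called 9 and 7 of all genes in deletion and duplication-deletion ESCs over controls. In neurons it called 13 and 40, in the same order, with no member called at either stage. In NPCs, where pairing is uncertain too, the block called no member, and its values are not given here. The confidence intervals give the sizes that these libraries leave possible, without the block.

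In ESCs all 8 members had positive log2 fold changes, 0.02 to 0.52 in deletion over control cells and 0.00 to 0.37 in duplication-deletion over control cells. Of all genes tested, 47.6% and 50.1% were positive. Ctcf was the lowest in both comparisons, and its mean was 112 and 113 CPM in the 2 mutants against 115 CPM in controls. Both comparisons share the control libraries. All groups overlapped for every member. Within same-numbered pairs, deletion ESCs stood above control ESCs in all 3 pairs for Rad21, Smc1a, Smc3, Nipbl and Smchd1, and duplication-deletion ESCs in all 3 pairs for Rad21, Smc1a, Stag2 and Smchd1. With the replicate block, 3 members had an unadjusted p under 0.05 in deletion over control ESCs: Nipbl at 0.58 ± 0.16, Rad21 at 0.28 ± 0.10 and Smc1a at 0.25 ± 0.10 (SE), with unadjusted p of 0.00338, 0.0185 and 0.0342 and adjusted p of 0.279, 0.364 and 0.412 by edgeR. No member had one in duplication-deletion over control ESCs. The shares of all genes with such a p, or higher in all 3 pairs, are not given here. Members also rose and fell together over libraries, so these counts are not separate observations. After group means were taken off, Rad21 and Nipbl correlated with Pearson r = 0.88. Nipbl had the largest fold change in both comparisons, with 468, 319 and 213 CPM in deletion ESCs and 482, 278 and 157 CPM in duplication-deletion ESCs, against 314, 286 and 119 CPM in control ESCs. Without the block its 95% interval was -0.60 to 1.65 for the deletion and -0.76 to 1.49 for the duplication-deletion. Ctcf had the narrowest interval for the deletion, -0.51 to 0.55.

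In NPCs 7 of 8 members were positive in deletion over control cells and 7 of 8 negative in duplication-deletion over control cells, each with a 95% interval that included 0. Smc1a had 314, 419.8 and 318 CPM in deletion NPCs, against 301, 231, 237, 266 and 309.5 CPM in control NPCs. The groups did not overlap, as was so for 1.41% of all genes in that direction, and the log2 fold change was 0.39 ± 0.21 (SE; 95% interval -0.06 to 0.85, unadjusted p = 0.0834, edgeR). Ctcf had 110.0, 147 and 103 CPM in deletion NPCs against 95.1, 88.9 and 65.5 CPM in duplication-deletion NPCs. These libraries did not overlap either, as in 2.97% of all genes, with a log2 fold change of 0.54 ± 0.22 (95% interval 0.07 to 1.01, unadjusted p = 0.0276, adjusted p = 1.00, edgeR). Y-linked genes differed in their means between duplication-deletion and control cells at this stage and in neurons. Ddx3y averaged 8.59 ± 7.50 CPM in duplication-deletion NPCs against 51.7 ± 15.6 CPM in control NPCs (n = 3 and 5), and 11.6 ± 4.03 CPM in duplication-deletion neurons against 61.9 ± 13.2 CPM in control neurons (n = 2 and 4). Eif2s3y and Uty had lower means too, 33.6 and 31.1 CPM in duplication-deletion NPCs against 67.7 and 70.8 CPM in control NPCs, and 21.6 and 20.9 CPM in duplication-deletion neurons against 38.1 and 49.9 CPM in control neurons. Kdm5d had a higher mean, 7.51 CPM in duplication-deletion NPCs against 0.494 CPM in control NPCs, and 5.42 CPM in duplication-deletion neurons against 0.0964 CPM in control neurons. Libraries of duplication-deletion NPCs spread widely, at 3.33 to 68.6 CPM (Eif2s3y), 2.53 to 59.4 CPM (Uty) and 0.281 to 15.8 CPM (Kdm5d). Control NPCs were at 47.3 to 89.7, 45.4 to 83.4 and 0 to 1.46 CPM in the same order, so these ranges overlapped. Ddx3y did not overlap, at 1.17 to 16.2 CPM in duplication-deletion NPCs against 33.8 to 73.0 CPM in control NPCs. In neurons none of these Y-linked genes overlapped between duplication-deletion and control libraries. In ESCs all of them overlapped, with Ddx3y at a mean of 63.0 CPM in duplication-deletion cells against 65.0 CPM in controls. Duplication-deletion NPCs and ESCs, compared above, thus also differed in their mean Y-linked levels. The X-linked members were at -0.08 (Smc1a) and -0.08 (Stag2) on the log2 scale in duplication-deletion over control NPCs, and at 0.38 and 0.01 in neurons. The part of the Y-linked differences in the members' values was not tested.

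Neurons had 2 libraries in each mutant group. Whether their replicate numbers pair libraries is uncertain. Stag2 had 277 and 139 CPM in deletion neurons against 174, 140.1, 116 and 129.9 CPM in control neurons, at 0.59 ± 0.32 (SE; unadjusted p = 0.0949, edgeR). Replicate 1 of the deletion stood above all controls, and replicate 3 lay inside the control range. Against the control of its own number each stood higher, 277 against 174 CPM in replicate 1 and 139 against 116 CPM in replicate 3, and with the replicate block the value was 0.50 ± 0.25 (SE; unadjusted p = 0.0719, adjusted p = 0.833, edgeR). Smchd1 had 68.3 and 77.3 CPM in deletion neurons against 101, 76.5, 80.5 and 82.1 CPM in control neurons, at -0.21 with an interval of -0.74 to 0.32. It was lower in both same-numbered pairs, 68.3 against 101 CPM and 77.3 against 80.5 CPM, and at -0.28 ± 0.25 with the replicate block (SE; unadjusted p = 0.284, edgeR). In duplication-deletion neurons Smchd1 had 84.4 and 85.9 CPM, at -0.01 with an interval of -0.54 to 0.52 over controls.

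The 22 Pcdhb entries summed to 86.9 to 238 CPM in deletion NPCs and 156 to 311 CPM in duplication-deletion NPCs, against 27.8 to 86.3 CPM in control NPCs, with no overlap. The Pcdha entries summed to 18.7 to 21.8 and 21.5 to 72.7 CPM in deletion and duplication-deletion NPCs, against 7.53 to 12.8 CPM in control NPCs, also with no overlap. The Pcdhg entries overlapped, at 128 to 266 CPM in deletion and 153 to 369 CPM in duplication-deletion NPCs against 166 to 329.5 CPM in control NPCs, and their mean was lower in the deletion, 199 against 225 CPM. In neurons the Pcdhb sums did not overlap with controls, at 338 to 396 CPM in deletion and 402 to 408 CPM in duplication-deletion neurons against 160.3 to 315 CPM in control neurons, and those of Pcdha and Pcdhg did. The lowest Pcdhb sum in deletion NPCs was close to the highest in control NPCs, 86.9 against 86.3 CPM. Each mutant neuron group had only 2 libraries. These sums were not tested.

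Tests of whether a genotype effect changed between stages called no member either. Over the 32 tests, for deletion and duplication-deletion cells between NPCs and ESCs and between neurons and NPCs, the smallest unadjusted p was 0.118, for Ctcf in deletion cells (-0.47 ± 0.29 for neurons against NPCs; adjusted p = 1.00, edgeR). The share of all genes called was 0.005% in 3 of the 4 tests and 0% in that of duplication-deletion cells between neurons and NPCs.

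**Figure D5:**
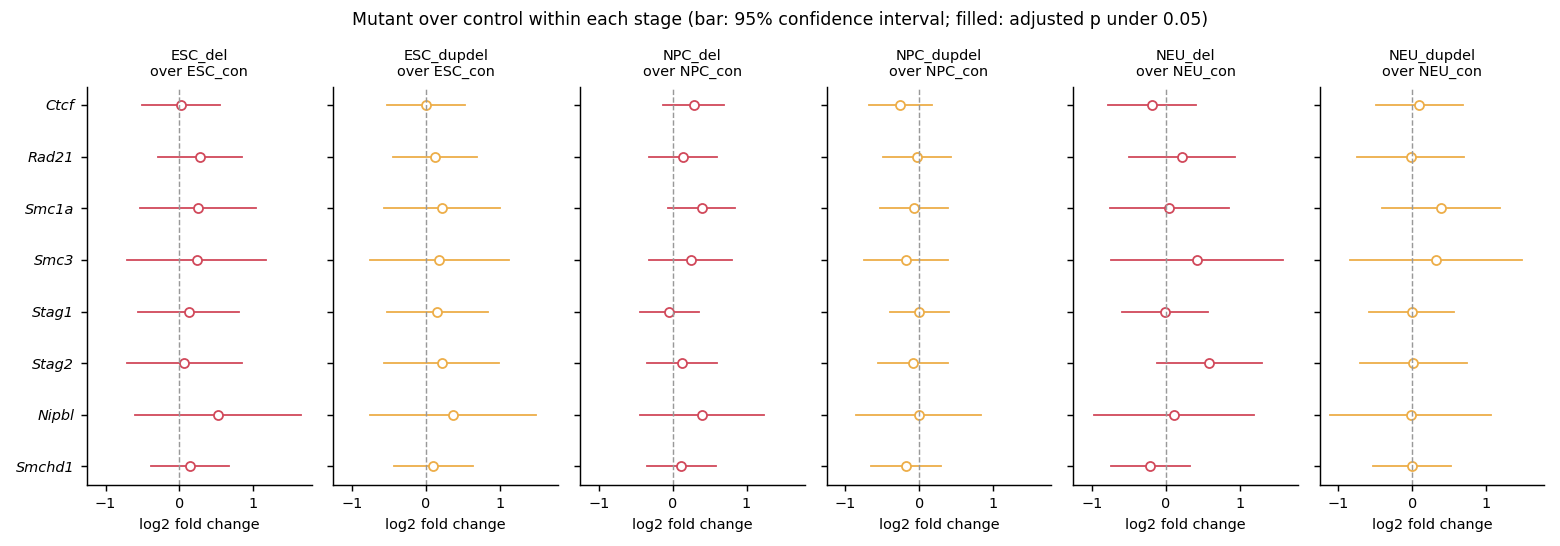
Log2 fold change of each gene (x axis) for deletion or duplication-deletion over control cells at each stage, with bars for the 95% confidence interval. All points are open, since no adjusted p was under 0.05, and every bar crosses 0.

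Maz, a zinc finger protein that acts with CTCF, is itself a gene of the 7qF3 interval. It had 15.2, 17.9 and 25.7 CPM in the 3 deletion ESC libraries against 42.7, 46.7 and 51.5 CPM in the 3 control ESC libraries. Its log2 fold change in deletion over control cells was -1.19 ± 0.28 in ESCs, -0.70 ± 0.24 in NPCs and -0.97 ± 0.32 in neurons (SE), with unadjusted p of 0.00151, 0.0135 and 0.0128 and an adjusted p of 1.00 in each, by edgeR. Of the other listed partners Stag3, the germ line counterpart of STAG1 and STAG2, was at 3.31 ± 1.67 CPM in deletion NPCs against 15.6 ± 5.40 CPM in control NPCs (-2.22 ± 0.42, adjusted p = 0.263). The H3K9 methyltransferase Setdb1 was at 123.6 ± 6.86 CPM in duplication-deletion neurons against 61.4 ± 12.3 CPM in control neurons (1.00 ± 0.26, adjusted p = 0.575).

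Libraries of a group did not scatter independently from gene to gene. After the group mean was taken off, log2 CPM of Smc1a and Smc3 correlated over the 28 libraries with Pearson r = 0.91, Rad21 and Smc3 with 0.89, Rad21 and Nipbl with 0.88, and Stag1 and Stag2 with 0.86. Ctcf and Smchd1 correlated least, at 0.16 with each other, and Smchd1 reached 0.68 at most, with Stag2. The libraries share scaling and sequencing depth, so these values are descriptions. In ESCs the scatter went with the replicate number: Smc1a had 262, 379 and 203 CPM in replicates 1, 2 and 3 of deletion ESCs, 255, 376 and 216 CPM in duplication-deletion ESCs, and 207, 328 and 201 CPM in control ESCs. Replicate 2 was highest in every genotype. What the replicate numbers stand for is not given in the labels.

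The authors' deposited table of mutant over control comparisons held all 8 members in each of its 6 comparisons and called none. Over all its genes it called 0.0211% and 0.0361% in deletion and duplication-deletion ESCs, 0.844% and 0.37% in NPCs and 0.279% and 1.15% in neurons, so that no call among 8 genes is near its background. Its smallest adjusted p for a member was 0.728, in duplication-deletion neurons, and its log2 fold changes ran from -0.23 to 0.61.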

How the data were processed

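RNA-seq of 28 libraries in 9 groups was analysed. The 6 Hi-C samples of the series were not analysed here. Per the labels' protocols, total RNA was DNase treated and sequenced as stranded paired reads of 75 bases. STAR 2.6.0c, RSEM 1.3.0 and DESeq2 1.22.2 are named in the submitters' processing notes, and the positions are on mm9. The authors deposited RSEM expected counts per gene, rounded here to whole numbers. The authors' deposited table gives log2 fold changes, p-values and adjusted p-values, and its score columns were not used.

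The 92 spike-in entries were removed, libraries were scaled by TMM, and genes were filtered by filterByExpr. edgeR 4.0.16 (robust quasi-likelihood test, R 4.3.3) was fitted per stage for genotype, per genotype for stage, and over all libraries for interactions, with Benjamini-Hochberg adjustment over all genes and a threshold of 0.05. A standard error is the log2 fold change divided by the root of the F statistic. DESeq2 1.42.0, limma-voom (limma 3.58.1), other scalings, no filter, a replicate block and leaving out libraries were alternatives. The scripts were tested on simulated data. Correlations used log2 CPM with a prior count of 2 and genes with a mean of at least 5 CPM.

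Intervals have a level of 95%. Libraries held 5578151 to 78814037 counts, and shallow libraries estimate low genes less precisely. The shallow libraries were replicate 3 of the ESCs and replicate 5 of the NPCs in every genotype. They held 5578151 to 24053970 counts, against at least 35672610 in the others.

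The named genes are the 8 members, from each list the genes with the smallest p (up to 4 past the threshold, otherwise 1), Maz, and the 3 genes most alike to each member. Members and lists were chosen with earlier results of these data known. Within ESCs, same-numbered libraries of different genotypes deviated together (r of 0.36 to 0.78 in 9 pairs), so the numbers pair them. Differently numbered ESC libraries reached 0.33 at most. Same-numbered neuron libraries were at 0.14 to 0.66 in 4 pairs, 2 for each mutant, but differently numbered ones reached 0.51. Each mutant neuron group had 2 libraries, whose deviations mirror each other, so whether the neuron numbers pair libraries cannot be told. Same-numbered NPC libraries were at -0.02 to 0.64 in 7 pairs, with a median of 0.53. Differently numbered ones had a median of -0.04 and reached 0.40. The pairs of replicates 4 and 5 were at 0.53 to 0.64, and those of replicates 1, 2 and 3 at -0.02 to 0.27. Whether the NPC numbers pair libraries is thus uncertain.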

Additional observations from a re-analysis of the deposited data

Results flagged for a closer look

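In 4 cases every mutant library lay on one side of the control mean at one stage and every mutant library on the other side at a later stage. This comparison is untested, and 48 such stage pairs were examined. For Ctcf in deletion cells the mean log2 ratio in NPCs minus that in neurons was 0.458, with libraries at 0.06 to 0.56 in NPCs and -0.28 to -0.12 in neurons. For Ctcf in duplication-deletion cells it was -0.381, with libraries at -0.60 to -0.06 in NPCs and 0.03 to 0.18 in neurons. For Smchd1 in deletion cells it was 0.333 between NPCs and neurons and 0.312 between ESCs and neurons, with libraries at 0.01 to 0.21 in ESCs, 0.07 to 0.13 in NPCs and -0.31 to -0.14 in neurons. The edgeR interaction terms of neurons against NPCs were -0.47 for Ctcf in deletion cells, 0.36 for Ctcf in duplication-deletion cells and -0.33 for Smchd1 in deletion cells, with unadjusted p of 0.118, 0.221 and 0.274, and none passed after adjustment. The difference between ESCs and neurons was not tested. No library stood far from the others of its group in the 26 sets of member levels and ratios that were examined, each of 4 or 5 control libraries.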

How the results depend on the processing

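Of 3560 member fold changes under the alternatives none reversed a call, 64 lost one and 29 gained one, and the 303 changes of sign were all in values called neither way. For control NPCs over ESCs 1 member was called. There were 0 with DESeq2 size factors, without the shallow libraries and without ESC replicate 1, and 2 with upper quartile scaling, DESeq2 or without neuron replicates 3 and 4 (0 to 1 with single libraries left out). For control neurons over NPCs 7 were called, 4 without neuron replicates 3 and 4, a setting chosen after the data were seen, and 6 to 8 with single libraries left out. For deletion NPCs over ESCs 0 were called, and 1 in a joint fit. For deletion neurons over NPCs 4 were called, 1 without neuron replicates 3 and 4, and 1 to 4 with single libraries left out. For duplication-deletion NPCs over ESCs 0 were called, and 1 with upper quartile scaling, no filter, DESeq2, limma-voom or without the shallow libraries (0 to 1 leaving out single libraries). For duplication-deletion neurons over NPCs 1 was called, 0 with DESeq2 size factors, without ESC replicate 1 or without neuron replicates 3 and 4, 3 with DESeq2, limma-voom or without the shallow libraries, 4 in the joint fit, and 0 to 1 with single libraries left out. The replicate block gave 2 calls there, where the samples share only a number. Between genotypes in ESCs, where the numbers pair libraries, and in NPCs and neurons, where pairing is uncertain, the block gave 0 member calls as without it. The causes were not tested. Counts over all genes moved more: 3623 in deletion neurons over NPCs (1936 to 5369), 5902 in duplication-deletion NPCs over ESCs (3214 to 7146), 2783 in duplication-deletion neurons over NPCs (808 to 4291), and at most 7 within stages (up to 242). In ratio tests that leave out libraries the smallest possible p rises, so a missed threshold there says nothing about stability. The 5578151 counts of the shallowest library limit the ESC comparisons.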
